A study of Sus scrofa with 20 samples.

Results

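miR-146a, miR-146b, miR-155 and miR-147b are microRNAs linked to inflammation, and their mature forms were followed here in blood cells of pigs before and after a brain hemorrhage. The members were chosen by name: hsa-miR-146a-5p, hsa-miR-146b-5p, hsa-miR-155-5p and hsa-miR-147b in reads counted against human miRNA names, and ssc-miR-146a-5p, ssc-miR-146b and ssc-miR-155-5p in the same libraries counted against pig miRNA names. These were 4 of 608 rows of the human-reference table and 3 of 284 rows of the pig-reference table, and all 7 were abundant enough to be tested, among 245 and 179 tested rows. Total RNA was taken from PBMCs, the mononuclear fraction of blood (mainly lymphocytes with some monocytes) that a density gradient recovers, of female American Yorkshire pigs aged 80 to 90 days and weighing 36 to 41 kg. Control libraries (10) came from blood drawn before intracerebral hemorrhage (ICH), labelled untreated, and ICH libraries (10) from blood drawn 6 h after the animal's own blood had been injected through a burr hole into white matter of the frontal lobe. Replicate numbers 1 to 10 occurred in both groups and were taken to pair the libraries. Sham operations were not analysed here, so hemorrhage, surgery and the time between draws cannot be told apart.

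miR-146a and miR-155 are transcribed when Toll-like receptors, sensors of microbial and damage products, activate the transcription factor NF-kB. miR-146a and miR-146b repress the adaptors IRAK1 and TRAF6, which carry the receptor signal, and so act as a brake on the pathway that induces them. miR-155 represses inhibitors of cytokine signalling such as SOCS1 and the phosphatase SHIP1 and is known as an amplifier of inflammatory responses in macrophages, B cells and T cells. miR-147b comes from the gene C15orf48 in human, and miR-147 is induced in macrophages by Toll-like receptor ligands and dampens their cytokine output. miR-146a and miR-146b come from different genes and have near-identical mature sequences, so the split of reads between them is uncertain.

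The human-reference table held 919313 to 2177834 reads per library and the same libraries held 896960 to 2103685 against the pig reference. Across all human-reference miRNAs, 19.2% were called different with the replicate number as a block, 13.1% being higher and 6.12% lower in ICH (edgeR quasi-likelihood test, Benjamini-Hochberg adjusted p under 0.05), and across pig-reference miRNAs 21.8% were called, 11.7% higher and 10.1% lower. Without the block 3.67% of human-reference miRNAs were called (2.86% higher and 0.816% lower) and 0% of pig-reference ones, and 0 members were among them. The human-reference split was 32 higher and 15 lower with TMM scaling, and 15 higher and 24 lower with library totals, which moved the median log2 fold change of all tested miRNAs from 0.026 to -0.081. TMM scales to 1 reference library, here Control 2 by edgeR's own choice, and over all 20 libraries as the reference 22 to 32 miRNAs were higher and 15 to 27 lower, with Control 2 at the end of both ranges. Among the 4 human-reference members 1 was called, miR-147b, which was higher, and among the 3 pig-reference members 0 were called, against 1 with an unadjusted p under 0.05. Limma voom and DESeq2 with the same block gave the same numbers of called members.

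miR-146a, the feedback inhibitor, was the most heavily sequenced of the 4, ranking 21st of 245 by mean level. Levels are given as CPM, reads of the miRNA relative to the TMM-scaled library size. In Control its lowest, median and highest levels were 5083, 8917 and 12180 CPM, and in ICH they were 6492, 7425 and 10400 CPM. The groups overlapped, the ICH libraries lying inside the Control range, with 3 Control libraries above the highest and 2 below the lowest ICH library. The level was lower after ICH in 7 of 10 pairs, and the change within a pair ran from -0.91 on the log2 scale in number 4, the library with the highest Control level, to 0.40 in number 5, the library with the lowest. The log2 fold change was -0.15 ± 0.10 (SE; 95% interval -0.36 to 0.06) and did not pass the test (edgeR with the block, adjusted p = 0.327). It was -0.26 with library totals (adjusted p = 0.0611), -0.26 with limma on the deposited RPM (adjusted p = 0.0766) and -0.25 without number 5 (adjusted p = 0.108). Against the pig reference it was -0.22 ± 0.10 (95% interval -0.43 to -0.01), with an unadjusted p of 0.0409 and an adjusted p of 0.126 in edgeR with the block, and without number 4 it was -0.10 (unadjusted p = 0.244, adjusted p = 0.374). RefSeq places the pig gene MIR146A between 63044261 and 63044338 of chromosome 16 (build Sscrofa11.1), outside the interval of any other listed gene.

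miR-146b, its paralog with the same known targets, was far scarcer, at 86 to 361 reads per library, and ranked 128th. Its lowest, median and highest levels were 85.5, 113.4 and 162.8 CPM in Control and 95.98, 109.6 and 135.2 CPM in ICH. It was higher in 5 pairs and lower in 5, from -0.59 on the log2 scale in number 6 to 0.37 in number 3. Its log2 fold change was 0.01 ± 0.11 (95% interval -0.22 to 0.24, adjusted p = 0.981, edgeR with the block), which leaves fold changes of 0.856 to 1.18 inside the interval. Its sign turned with the scaling, to -0.10 with library totals and -0.03 with DESeq2's size factors, and the pig-reference value was -0.06 ± 0.11. Its gene MIR146B spans 113446854 to 113446952 of pig chromosome 14 (Sscrofa11.1) and overlaps no other listed gene.

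miR-155, the amplifier, lay between them, ranking 69th. Its lowest, median and highest levels were 557, 755.1 and 1030 CPM in Control and 717.9, 881.2 and 1080 CPM in ICH. The 10 ICH libraries all lay above the 4 lowest Control libraries, and 1 ICH library lay above the highest Control library. The level was higher after ICH in 9 of 10 pairs, the exception being number 1 (-0.13 on the log2 scale), and the largest change was 0.54 in number 7. With library totals in place of TMM scaling it was higher in 7 of 10 pairs. Its log2 fold change was 0.20 ± 0.091 (SE; 95% interval 0.01 to 0.39), with an unadjusted p of 0.0394, and it did not pass the adjusted test (edgeR with the block, adjusted p = 0.14). It was 0.09 with library totals (adjusted p = 0.6) and with limma on the deposited RPM (adjusted p = 0.64), and 0.13 to 0.19 with 1 number left out, with an unadjusted p of at least 0.0648. Over the 20 possible TMM reference libraries it was 0.12 to 0.20, Control 2 giving the highest value and being the only 1 with an unadjusted p under 0.05 (edgeR with the block, adjusted p 0.14 to 0.413). Against the pig reference the log2 fold change was 0.11 ± 0.088 (adjusted p = 0.379, edgeR with the block), higher in 6 of 10 pairs. Its gene MIR155 spans 189138822 to 189138902 of pig chromosome 13 (Sscrofa11.1) and overlaps no other listed gene.

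miR-147b, the scarcest of the 4, rose 1.52-fold. It was counted only against human names, with 15 to 55 reads per library in Control and 27 to 73 in ICH, and ranked 184th of 245 by mean level. In Control its levels were 12.79 CPM at the lowest, 21.39 at the median and 46.3 at the highest, and in ICH 20.45, 30.65 and 57.36 CPM. The ranges overlapped: 5 Control libraries lay below the lowest ICH library, and 1 ICH library, number 10, lay above the highest Control library, number 8. The level was higher after ICH in 9 of 10 pairs, by 0.02 on the log2 scale in number 9 and by 0.27 to 1.19 in the other 8, and lower by 0.40 in number 8. The log2 fold change was 0.60 ± 0.16 (SE; 95% interval 0.26 to 0.94, adjusted p = 0.011, edgeR with the block), and 12 of the 245 tested miRNAs had a larger positive fold change. The call was lost without the block (adjusted p = 0.136), with library totals (adjusted p = 0.0577), with limma on the deposited RPM (adjusted p = 0.0729) and without number 10 (adjusted p = 0.0556), the log2 fold change then being 0.49 to 0.57. The call held with each of the 20 libraries as the TMM reference, at 0.52 to 0.60 (adjusted p 0.011 to 0.0266). Counting error alone was wide. In number 4 the exact 95% Poisson intervals overlapped, at 8.4 to 24.7 for the 15 Control reads and 21.1 to 44.0 for the 31 ICH reads. In number 10 they did not, at 24.4 to 48.7 for the 35 Control reads and 54.6 to 88.4 for the 70 ICH reads. These intervals are of reads before library scaling.

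**Figure D1:**
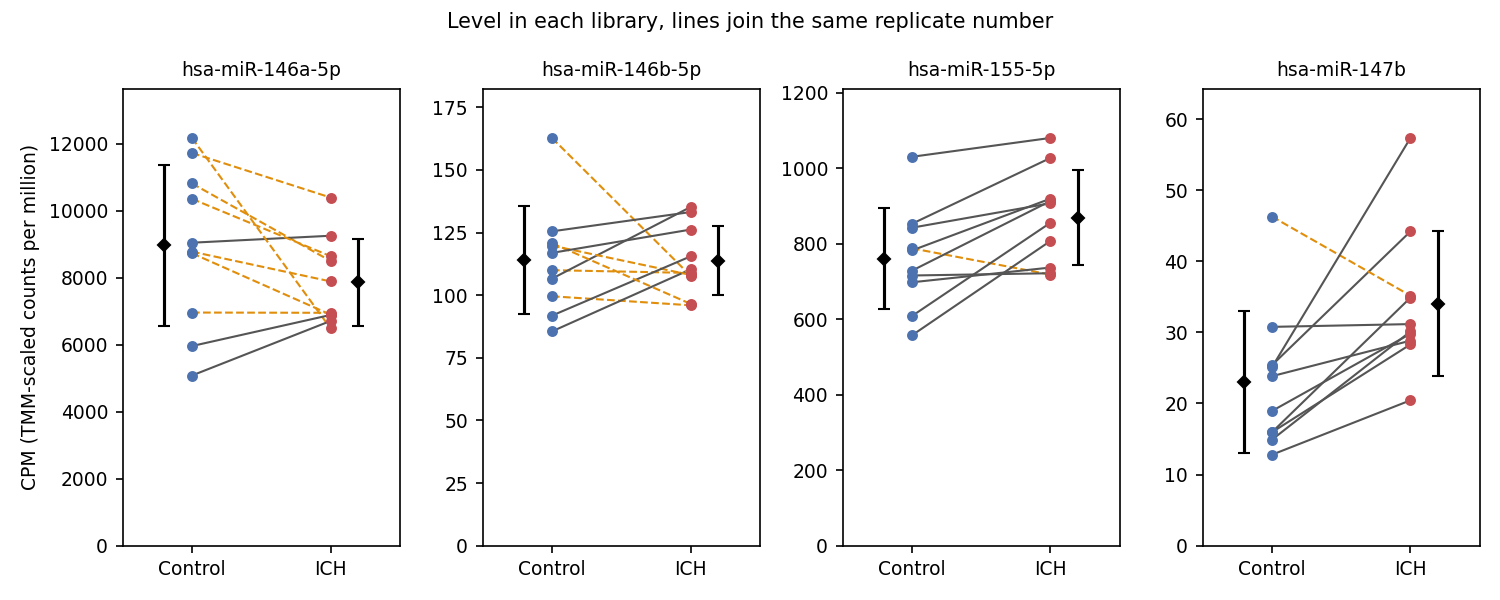
Level of each human-reference member in CPM (vertical axes from 0, one scale per panel) in the 10 Control and 10 ICH libraries; lines join the same replicate number, solid grey where ICH was higher and dashed orange where it was lower, and diamonds with bars show the mean and SD. miR-147b and miR-155-5p were higher after ICH in 9 of 10 pairs each, miR-146b-5p in 5 and miR-146a-5p in 3.

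The spread between libraries was largest for the scarcest member. In Control the coefficient of variation was 43.5% for miR-147b, 26.7% for miR-146a, 18.9% for miR-146b and 17.6% for miR-155, and in ICH it was 30.0%, 16.6%, 12.1% and 14.4%. Counting error alone would give miR-147b 19.2% in Control and 15.7% in ICH, and miR-146a 0.923% and 1.0%. The highest Control library exceeded the lowest 3.62 times for miR-147b and 1.85 times for miR-155. Levels before and after were compared over the 10 numbers for each of the 4 members on the log2 scale (permutation tests with 100000 resamples, adjusted over the 4). Pearson's r was 0.59 for miR-155 (permutation p = 0.0726, adjusted p = 0.205; Spearman's rho 0.58, permutation p = 0.0897, adjusted p = 0.179), and it was 0.39 without numbers 6 and 7, the farthest from the Control median. For miR-146a r was 0.53 (permutation p = 0.12, adjusted p = 0.205; rho 0.39, permutation p = 0.265, adjusted p = 0.353) and 0.32 without numbers 5 and 10. For miR-147b r was 0.48 (permutation p = 0.154, adjusted p = 0.205; rho 0.68, permutation p = 0.0351, adjusted p = 0.14) and 0.40 without numbers 4 and 8. For miR-146b r was 0.02 (permutation p = 0.951, adjusted p = 0.951; rho -0.14, permutation p = 0.707, adjusted p = 0.707) and 0.16 without numbers 3 and 6. None of the 4 relations passed after adjustment.

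**Figure D2:**
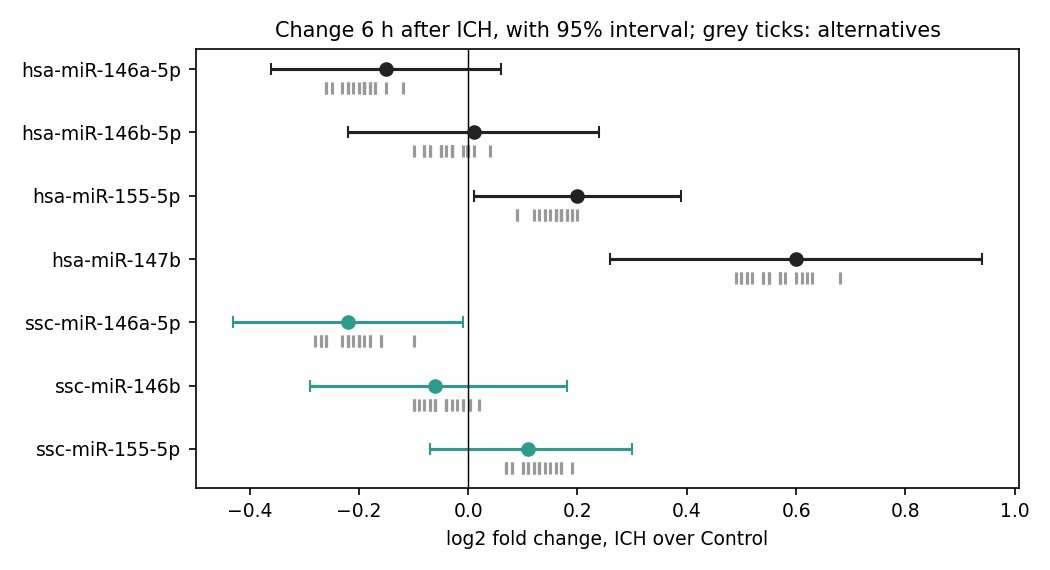
Log2 fold change of ICH over Control for the 7 member rows (points, with 95% intervals from edgeR with the block; black for the human reference, green for the pig reference), with grey ticks for the value under each alternative setting. miR-147b, at 0.60, is the member whose interval lies farthest from 0, and its alternatives run from 0.49 to 0.68.

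Whether the members responded differently from each other was tested with the ratio of their reads in the same library, where the scaling cancels. All 6 ratios of the 4 human-reference members were compared (log2 of reads plus 1, ICH minus Control within a number, exact two-sided sign-flip test over 10 pairs, adjusted over the 6). The members themselves had been chosen with earlier results of these data known. The ratio of miR-155, the amplifier, to miR-146a, the brake, rose 1.28-fold. A library held 11.5 reads of miR-146a for each read of miR-155 before ICH and 9.03 after it (geometric means). In Control the log2 ratio was -3.53 ± 0.43 and in ICH -3.17 ± 0.24 (SD, n = 10 each), a change of 0.35 ± 0.11 (SE; 95% interval 0.10 to 0.61; exact p = 0.0156, adjusted p = 0.0312). It was higher in 8 of 10 pairs and lower in numbers 5 and 10, and the largest change, 0.92, was in number 4. In the pig-reference counts the change was 0.33 (exact test, adjusted p = 0.0527 over 3 ratios), and in a permutation test that ignores the pairs the adjusted p was 0.0754.

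miR-147b gained on both miR-146 paralogs. These ratios use the same miR-147b reads as its called rise and so are not separate evidence of it. Its log2 ratio to miR-146a went from -8.61 ± 0.72 to -7.85 ± 0.44 (SD, n = 10 each), a 1.69-fold rise. That change was 0.76 ± 0.19 (SE; 95% interval 0.32 to 1.19; exact p = 0.00977, adjusted p = 0.0312), with 8 of 10 pairs higher. Its log2 ratio to miR-146b went from -2.35 ± 0.53 to -1.76 ± 0.41, a change of 0.59 ± 0.17 (95% interval 0.22 to 0.97; exact p = 0.0137, adjusted p = 0.0312), with 9 of 10 pairs higher and number 8 lower. Against miR-155 the gain was 0.40 ± 0.17 (95% interval 0.01 to 0.80) and did not pass after adjustment (exact p = 0.0469, adjusted p = 0.0703).

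The other ratios did not pass. miR-155 to miR-146b changed by 0.19 ± 0.10 (SE; 95% interval -0.04 to 0.41; exact p = 0.0918, adjusted p = 0.11). miR-146b to miR-146a changed by 0.17 ± 0.17 (95% interval -0.22 to 0.55; exact p = 0.379, adjusted p = 0.379), so a difference in response between the paralogs of up to 0.55 on the log2 scale lies inside the interval. There were 76.6 reads of miR-146a for each read of miR-146b before ICH and 68.3 after. The 3 calls lay near the threshold: without any of numbers 1, 2, 3, 4, 6 or 7 the adjusted p of each was 0.0527 to 0.0625, and without number 10 that of both miR-147b ratios was 0.0547.

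**Figure D3:**
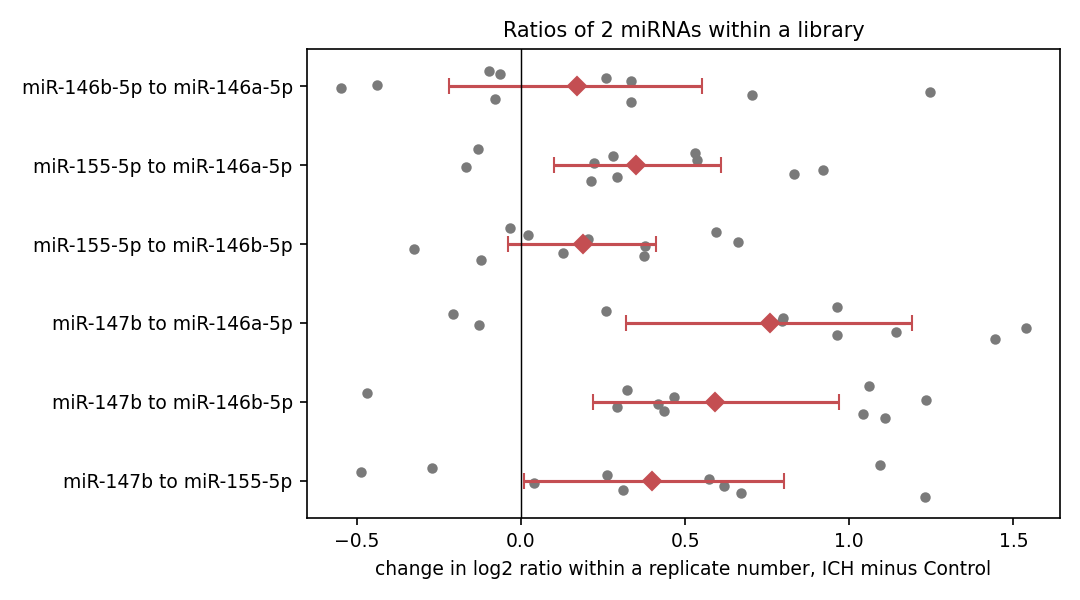
Change in the log2 ratio of 2 members within each replicate number (grey points, ICH minus Control, horizontal axis) for the 6 ratios, with the mean and its 95% interval (red diamonds and bars). The 3 ratios that passed the adjusted exact test have means of 0.35, 0.76 and 0.59.

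The ratio of miR-155 to miR-146b varied little among the Control libraries. Before ICH there were 5.94 to 7.27 reads of miR-155 for each read of miR-146b, and after ICH 5.32 to 10.6. The SD of the log2 ratio was 0.10 in Control, where counting error alone would give 0.13, and 0.33 in ICH, where counting error would again give 0.13 (n = 10 each). Over the 10 Control libraries the log2 CPM of these miRNAs correlated with Pearson's r = 0.92 (permutation p = 0.00039, adjusted p = 0.00468 over 12 correlations of members within groups) and Spearman's rho = 0.87 (permutation p = 0.00216, adjusted p = 0.0259). Without numbers 6 and 7, those with the highest and lowest Control level of miR-155, r was 0.85. Over the 10 ICH libraries r was -0.55 (permutation p = 0.102, adjusted p = 0.61) and rho -0.66 (permutation p = 0.0421, adjusted p = 0.252), and r was -0.72 without numbers 1 and 6. The difference in spread between the groups was tested by subtracting each group's median and then swapping the 2 centred values within a number. Over all possible swaps the p was 0.0156 and the adjusted p 0.0936 over the 6 ratios, so the difference did not pass. Since the medians came from the same libraries, this p is approximate. The other 10 correlations did not pass after adjustment (permutation tests, adjusted p of Pearson's r at least 0.876). These correlations and the test of spread were chosen after the ratios had been seen. The difference in r between Control and ICH was not tested.

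**Figure D4:**
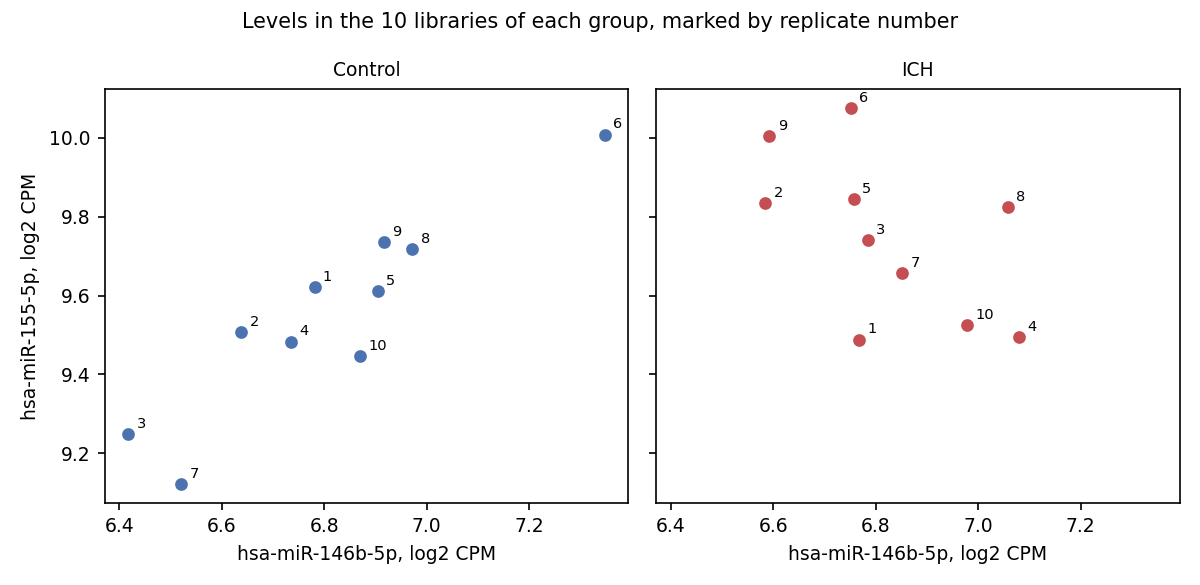
Level of miR-155-5p against miR-146b-5p, both in log2 CPM, in the 10 Control libraries (left, blue) and the 10 ICH libraries (right, red), each point marked with its replicate number. The Control libraries lie along a rising line (r = 0.92). In the ICH libraries r is -0.55, which did not pass (permutation test, adjusted p = 0.61), and the difference between the groups in r was not tested.

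Other rows of the same genes or names were close to empty. The opposite arm miR-155-3p had 3 reads in all Control libraries together and 5 in all ICH libraries against the human reference, and 5 and 5 against the pig reference. The pig row miR-146a-3p had 2 reads in Control and 6 in ICH. miR-147a, a relative of miR-147b in the human naming, had 1 read in ICH and 0 of 13937742 reads in Control, which allows a share of up to 2.15e-05% (3 reads). None of these rows was tested, and no change can be read from so few reads.

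The reference mattered for miR-155 and hardly for the miR-146 paralogs. miR-146a differed by at most 11 reads between references in any library, and miR-146b had equal counts in 18 of 20 libraries. miR-155-5p had 1.349 to 1.496 times as many reads against the pig reference as against the human one, with medians of 1.436 in Control and 1.409 in ICH. The same reads of miR-146a gave log2 fold changes of -0.15 and -0.22, with library scaling that was estimated from each table separately. The authors' filtered tables kept 99.4% to 99.7% of miR-146a reads, 87.0% to 95.6% of miR-146b reads and 48.1% to 88.7% of miR-147b reads in the human reference. With those filtered counts the miR-147b log2 fold change was 0.63 (edgeR with the block, adjusted p = 0.0112).

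Other miRNAs of the pathway were described from lists chosen with earlier results of these data known. Of 9 miRNAs induced on Toll-like receptor or NF-kB signalling, the members included, 10 human-reference rows were tested: 3 rose, 2 fell and 5 did not pass, with a median log2 fold change of 0.16 against 0.026 over all miRNAs tested. Of all 245 tested, 13.1% were higher and 6.12% lower. Beside miR-147b, the rises were miR-21-5p (0.58 ± 0.093, adjusted p = 0.000153), an miRNA of activated immune cells, and miR-9-5p (0.54 ± 0.11, adjusted p = 0.00139), which represses NFKB1 (edgeR with the block). Both arms of miR-132, a CREB-responsive miRNA, fell (edgeR with the block). The log2 fold change was -0.58 ± 0.15 for the 3p arm (adjusted p = 0.00877) and -0.59 ± 0.21 for the 5p arm (adjusted p = 0.0465). Without the block miR-21-5p kept its call (edgeR, adjusted p = 0.0235). miR-9-5p (adjusted p = 0.0801), miR-132-3p (adjusted p = 0.0924) and miR-132-5p (adjusted p = 0.136) lost theirs. In the pig reference 2 of 6 rows rose (miR-21 and the merged entry miR-9@), 1 fell (miR-132) and 3, the members, did not pass, against 11.7% higher and 10.1% lower among all tested, and the median was 0.03 against -0.043.

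Of 8 miRNAs reported to restrain the same signalling, 12 human-reference rows were tested, of which 3 rose and 0 fell, against 13.1% higher and 6.12% lower among all tested, with a median of 0.16 against 0.026. The rises were miR-223-5p (0.82 ± 0.12, adjusted p = 6.75e-05) and miR-223-3p (0.63 ± 0.15, adjusted p = 0.00856), products of a myeloid gene, and miR-10a-5p (0.52 ± 0.10, adjusted p = 0.000901), known in endothelium (edgeR with the block). Without the block miR-223-5p (adjusted p = 0.0235) and miR-223-3p (adjusted p = 0.0263) kept their calls and miR-10a-5p did not (edgeR, adjusted p = 0.0801). In the pig reference 1 of 7 rows rose, miR-10a-5p, and 1 fell, miR-181b (-0.22 ± 0.079, adjusted p = 0.049, edgeR with the block). Among all pig-reference miRNAs tested 11.7% were higher and 10.1% lower, and the median of the list was 0.04 against -0.043. miR-223 had no tested row in the pig reference, so its rises could not be compared there.

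**Figure D5:**
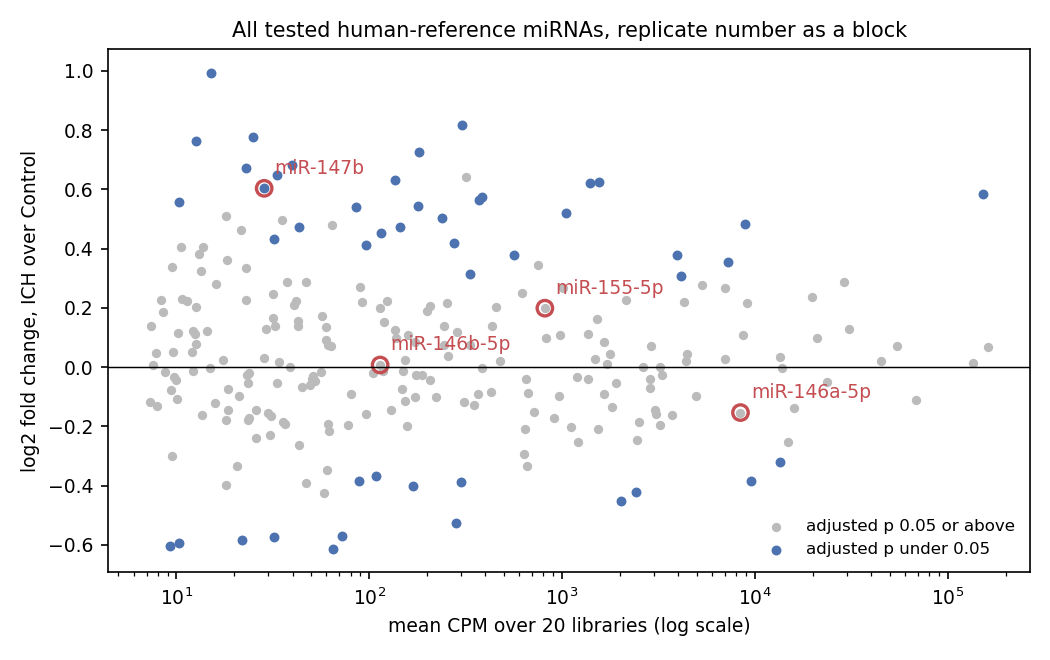
Log2 fold change of ICH over Control against mean CPM (log axis) for the 245 tested human-reference miRNAs, with the called ones in blue, the others in grey and the 4 members circled in red. miR-147b, at 0.60, is among the scarce called miRNAs, and the other 3 members lie between -0.15 and 0.20.

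Markers of blood cell types moved over the same interval, and in bulk samples fewer cells of a type and less RNA per cell cannot be told apart. Each list holds few rows. Of all miRNAs tested, 13.1% were higher and 6.12% lower in the human reference, and 11.7% and 10.1% in the pig reference. In the human reference 3 of 6 tested rows of the myeloid list (miR-223, miR-27a, miR-24) rose and 0 fell, and the list's summed level went from 12820 to 16270 CPM in Control to 14970 to 18280 CPM in ICH. The rows that rose were both arms of miR-223 and miR-27a-5p, while the more abundant miR-24-3p (0.11, adjusted p = 0.393) and miR-27a-3p (0.04, adjusted p = 0.819) did not pass (edgeR with the block). In the pig reference 0 of 3 tested myeloid rows, which do not include miR-223, passed, with a sum of 12310 to 16000 CPM in Control and 11680 to 16420 CPM in ICH, higher in 5 of 10 pairs. For the lymphocyte list (miR-150, miR-342, miR-181a, miR-29a) 3 of 6 rows fell, and the sum was 23630 to 34120 CPM in Control and 18650 to 32150 CPM in ICH, and in the pig reference 3 of 4 rows fell. Of the red cell list (miR-451, miR-144, miR-486) 2 of 4 rows rose, from a sum of 110.9 to 812.8 CPM to 429.3 to 1334 CPM, and of the platelet list (miR-126, miR-199a, miR-382) 1 of 2 rose, from 187.6 to 408.0 CPM to 261.2 to 559.3 CPM. In the pig reference 1 of 3 tested red cell rows and 1 of 3 platelet rows rose. The human-reference sums were higher after ICH in 9 of 10 pairs for the myeloid list and in 1 for the lymphocyte list. For the red cell and platelet lists they were higher in 10 pairs each. In the pig reference the lymphocyte, red cell and platelet sums were higher in 1, 7 and 10 of 10 pairs. The human-reference lymphocyte rows that did not pass were miR-181a-2-3p (-0.43, adjusted p = 0.0704), miR-181a-3p (-0.2, adjusted p = 0.28) and miR-342-3p (-0.33, adjusted p = 0.0842). Those of the red cell list were miR-144-5p (0.51, adjusted p = 0.063) and miR-451a (0.64, adjusted p = 0.14). That of the platelet list was miR-126-5p (0.38, adjusted p = 0.26, all edgeR with the block). The white blood cell marker miR-142 was abundant, at 15490 to 27940 CPM in Control and 10870 to 20840 CPM in ICH, and its sum was higher after ICH in 2 of 10 pairs. Neither arm passed in the human reference, and in the pig reference miR-142-5p fell (-0.32, adjusted p = 0.0264, edgeR with the block), the sum there being higher in 1 of 10 pairs. The neuronal miR-124 had no row. The liver miRNA miR-122 was at 0.853 to 9.32 CPM in Control (median 4.596) and 3.801 to 28.55 CPM in ICH (median 7.581). The muscle list (miR-1, miR-133a, miR-206) was at 2.37 to 9.32 (median 5.45) and 5.29 to 63.6 CPM (median 9.084). Nearly all of it was miR-1, with miR-133a averaging 0.0686 CPM. These liver and muscle rows were too scarce to be tested, with at most 27 and 57 reads in any library. The part of the shifts in blood cell markers in the change of miR-147b or in the ratios was not tested.

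The miRNAs whose change followed a member most closely over the 10 numbers were picked as the highest of 229 human-reference miRNAs averaging 10 CPM or more, and so are given as a description with no test. For miR-146a they were miR-181b-5p (Pearson's r = 0.87, Spearman's rho = 0.83) and let-7i-5p (r = 0.86, rho = 0.75). For miR-146b they were miR-140-3p (r = 0.76, rho = 0.67) and miR-181b-3p (r = 0.65, rho = 0.77), and for miR-155 miR-7-5p (r = 0.77, rho = 0.77) and miR-340-5p (r = 0.68, rho = 0.53). For miR-147b they were miR-7641 (r = 0.81, rho = 0.71) and miR-1249-3p (r = 0.75, rho = 0.60). Of these miR-1249-3p rose (0.54 ± 0.17, adjusted p = 0.0302) and miR-7641 did not pass (0.48 ± 0.19, adjusted p = 0.0843, both edgeR with the block). Among the members themselves the changes were weakly related, with r from -0.29 between the miR-146 paralogs to 0.31 between miR-146b and miR-155.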

How the data were processed

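The authors deposited counts of reads for each miRNA, matched to human and to pig miRNA names, with a filtered version of the counts and its RPM. Bcl2fastq, FastQC and Bowtie appear in the submitters' processing notes, as do Sscrofa11.1, GRCh38 and hg38. How reads were counted, shared between similar miRNAs and filtered is not given in the sources used here. Libraries were assigned from sample titles.

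Unfiltered counts were tested with edgeR 4.0.16 in R 4.3.3 (robust quasi-likelihood fit after filterByExpr and TMM, Benjamini-Hochberg over all miRNAs tested, threshold 0.05), with limma 3.58.1 and DESeq2 1.42.0 as alternatives. Each SE is the log2 fold change divided by the square root of F. The fit used the replicate number as a block, since the design text describes a draw before ICH and another 6 h later. Deviations from the group means correlated between same-numbered libraries at 0.146 to 0.672 (human reference) and 0.129 to 0.768 (pig reference). All were over the preset 0.1. Between differently numbered libraries the median was -0.071 (human reference) and -0.065 (pig reference), and their range was not computed. Same-numbered libraries also had neighbouring sample numbers in the sequencing run, and the part of processing order in these correlations was not tested. Intervals of ratio changes are t intervals over 10 pairs. Members, lists and alternatives were chosen with earlier results of these data known. Named miRNAs are the members, other rows of their hairpins, called list members, the 2 closest followers of each human-reference member, and the cell type markers. Grouping by shared seed was not done, because mature sequences were not used here. Gene positions are from RefSeq (Sscrofa11.1), matched by miRNA name. The reads carry no molecular identifiers, so Poisson intervals and upper limits cover counting error only. The labels name no animals; if some libraries were technical repeats, the p values would measure technical spread.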

Additional observations from a re-analysis of the deposited data

Results flagged for a closer look

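Dixon's test for a library that stands apart was applied to 26 groups of 10 libraries, the 7 member rows and 6 ratios in each group. It marked 1 of them, and chance marks about 1 in 20. The library was ICH replicate 4, whose log2 ratio of miR-147b to miR-146b was -2.69, while the other ICH libraries had -1.93 to -1.13. Without number 4 the change of that ratio was 0.62 (exact sign-flip test, adjusted p = 0.0527).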

How the results depend on the processing

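Of 258 values under alternatives to the member and ratio results and the counts of calls, 208 kept their direction and their side of the threshold or, for counts of calls, a similar size. That count includes results that passed neither in the main test nor under the alternative. With a number left out, the miR-147b call held in 9 of 10 fits. The call of miR-155 to miR-146a held in 4 of 10, and those of miR-147b to miR-146a and to miR-146b in 3 of 10 each. Under the other alternatives these calls held in 6 of 9, 3 of 5, 4 of 4 and 4 of 4. With no replicate block the calls fell from 47 to 9 in the human reference and from 39 to 0 in the pig reference (edgeR; 35 pig miRNAs then had an unadjusted p under 0.05), and leaving out a number gave 27 to 59 pig calls, the most without number 4. The miR-147b log2 fold change lost its call with no replicate block (0.57), with library totals (0.49) and with limma on deposited RPM (0.50), and was 0.50 to 0.68 with a number left out. The near-zero change of hsa-miR-146b-5p turned to -0.0026 with no replicate block, -0.10 with library totals, -0.03 with RLE scaling, -0.03 with DESeq2, -0.05 with no low-count filter and -0.07 with limma on RPM, and was -0.08 to 0.04 with a number left out. It was -0.08 with ICH 1 as the TMM reference library and above 0 with only 1 of 20 libraries as that reference. That of ssc-miR-146b turned to 0.0027 with filtered counts and 0.003 with Control 2 as the TMM reference and was -0.10 to 0.02 with a number left out. The ratio of miR-155 to miR-146a lost its call without pairs (0.35) and in the pig reference (0.33). With a number left out the changes were 0.29 to 0.41 for miR-155 to miR-146a, 0.67 to 0.86 for miR-147b to miR-146a, 0.52 to 0.71 for miR-147b to miR-146b and 0.31 to 0.50 for miR-147b to miR-155, the last passing without number 8 or 9. Leaving out a number re-estimated the scaling and could change its reference library. The other reference libraries, the filtered-count ratios, the within-group correlations and the test of spread were chosen after seeing the data. Beyond these, the cause of these shifts was not tested.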
